A study of Homo sapiens with 9 samples.

Results

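The genes described here encode the cytosolic ribosomal proteins. They were taken as the protein-coding genes of GRCh38 with a symbol of RPL or RPS and a number, together with RPLP0, RPLP1, RPLP2 and RPSA, without RPS6K genes, symbols ending in L or L1, pseudogenes and read-through genes. The rule gave 79 genes of 20037, 46 of the large and 33 of the small subunit. A region of the count table belonged to a gene when its centre lay within 1 kb of either end of that gene. By this rule 77 genes held 96 regions of 148797 in all, 55 at large and 41 at small subunit genes, and all 96 were among the 119417 regions with enough counts to be tested. RPS4Y1 and RPS4Y2 had no region in their windows.

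The libraries came from SK-N-BE(2)c, an established human neuroblastoma cell line. Antisense oligonucleotides (ASOs) were delivered with Lipofectamine 2000 at 100 nM and the cells were collected 48 h later. ASO2 and ASO10 are directed at NESPR, a long non-coding RNA, and NCA is the negative control ASO; each group had 3 libraries, and all groups shared the line, the transfection reagent and the dose. ATAC-seq was measured, in which the Tn5 transposase inserts adapters into accessible DNA, so that a region's count stands for its accessibility. ATAC-seq does not measure RNA, and the knockdown of NESPR was not analysed here. The labels do not say that replicates came from separate cultures, so p-values measure only the spread between these libraries, which may be technical. A region's value is given as counts per 1000000 after scaling by library size (CPM), and levels of different genes are compared only as CPM per kb of region width.

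Ribosomal proteins join the ribosomal RNAs in the small subunit, which reads the messenger RNA, and the large subunit, which forms peptide bonds. Their genes are active in nearly all dividing cells, and each subunit takes up its proteins in about equal numbers. Most vertebrate ribosomal protein transcripts begin at a cytosine within a run of pyrimidines, the 5′ terminal oligopyrimidine (TOP) motif, through which mTOR signalling controls their translation. Many of these genes also carry small nucleolar RNAs (snoRNAs), which guide rRNA modification, in their introns.

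RefSeq promoter sequences (GRCh38.p14, from 250 bases before to 50 bases after the annotated start) matched 64 of the 79 genes by symbol. A cytosine at the annotated start followed by at least 4 pyrimidines stood in 43 of these 64 promoters, or 67.2%, against 4.59% of 15843 protein-coding promoters in the same table. With any annotated start of the gene allowed, the count was 47 of 64, or 73.4%, against 6.24%. The windows below show the starts of the genes that the accessibility results turn on and of members with different tracts. Each runs 5′ to 3′ on the gene's strand from 15 bases before the start through the first 15 bases of the transcript, and capitals mark the pyrimidine run.
RPS28: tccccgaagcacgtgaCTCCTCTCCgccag
RPS24: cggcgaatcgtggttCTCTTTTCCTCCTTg
RPL21: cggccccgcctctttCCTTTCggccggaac
RPL36: ccgcgcggcgccagcCCTTCCgccacggcc
RPL13A: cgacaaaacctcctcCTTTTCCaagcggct
RPL3: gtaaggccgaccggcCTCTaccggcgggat
RPL26: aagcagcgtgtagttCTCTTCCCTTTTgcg
RPS13: ttccactctcgctctCCTTTCgttgcctga
RPLP0: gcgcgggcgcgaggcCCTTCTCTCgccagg
RPS6: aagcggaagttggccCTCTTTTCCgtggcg
RPSA: tttcctgccgcctgtCTTTTCCgtgctacc
RPS19: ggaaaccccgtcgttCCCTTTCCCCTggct
RPS14: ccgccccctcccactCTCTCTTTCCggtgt
The run is 14 bases in RPS24, 12 in RPL26 and 4 in RPL3. In RPS28 the annotated start is an adenine and a run of 9 pyrimidines begins at base 2. RPS28, whose tract is next to the start, and RPL3, whose run is 1 base too short, therefore stand outside the 43 promoters; the other windows shown are among them.

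Other short motifs were searched on both strands of the same 300-base windows; no hits of different motifs overlapped in the members. The ETS motif CCGGAAG was in 21 of 64 members, or 32.8%, against 14.2% of all promoters, and the YY1 motif AAGATGG was in 8, or 12.5%, against 6.36%. Members held the E-box CACGTG in 3 promoters (RPL13A, RPL19 and RPS28), or 4.69%, against 8.82%. The Sp1 motif GGGCGG stood in 53.1% of members and 58.3% of all promoters, CCAAT in 34.4% and 36.4%, TATAAA in 7.81% and 9.75%, and TGACGTCA in 4.69% and 2.56%. Median GC content was 58.7% in members and 62.7% in all promoters. These matches describe letters in a window and show no binding.

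The genes lie on 22 chromosomes, with 12 on chromosome 19. At least 1 annotated snoRNA lay inside 29 of the 79 genes (36.7%), against 2.63% of all protein-coding genes, and the genes held 60 snoRNAs in all. RPL3, RPL4, RPL7A, RPL13A and RPL23A were among the genes with 4. The annotation lists 1967 ribosomal protein pseudogene entries by symbol, with a median of 16 per gene and 137 for RPL21, the largest number. How reads that fit both a gene and its processed copies were placed is not given in the sources used here.

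Of the 96 regions, 63 lay at the start of a member gene and 15 at its other end, and 18 belonged to the 15 genes with no start in the promoter table. One region was found at 60 genes, 2 at 15 genes, and 3 at RPS14 and RPS19. The centre of a start region lay a median of 64 bases upstream of the annotated start; 44 of 63 centres were upstream and 53 were within 250 bases. In 17 regions the centre also lay within 1 kb of another gene's start in the promoter table, for example NDUFA7 at RPS28, SPHK2 at RPL18 and ZWILCH at RPL4. Read-through genes were included, and starts missing from that table could not be counted. Either end of another gene lay within 1 kb of the centre in 27 regions. Accessibility of these regions cannot be assigned to 1 of the genes.

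Library totals ran from 7293565 to 10948569 counts, of which 9614 to 13855 fell in the 96 regions. A single region of chromosome 1 (629123 to 634897) held 6.98% to 9.04% of each library. Libraries of a group differed by more than the noise of independent counts (chi-square per degree of freedom 2.74 to 3.42). The biological coefficient of variation over tested regions was 23.5%. How reads were filtered and counted is not given, so these values cannot show that the libraries were prepared separately. Of 9 adrenergic neuroblastoma markers, 7 had a region by the same window rule, with PHOX2A reaching a mean of 33.5 CPM; MYCN and TH had none in their windows. Of 10 markers of other cell types only KRT18, PDGFRB and PECAM1 had a region, at means of at most 10.96 CPM.

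In the control libraries most ribosomal protein genes were above the median accessibility of protein-coding genes. For each gene the region with the highest mean CPM was taken. Its NCA level had a median of 15.6 CPM per kb over 77 genes (middle 50% from 11.4 to 20.3, lowest 5.09), against 13.6 for the corresponding region of 13793 protein-coding genes and 6.44 for all tested regions. The level was above the median of all genes in 48 of 77 members, above their 75th percentile in 18 and above their 90th in 7. Members were thus not more frequent than other genes at the upper end. Their own 75th percentile was 20.3 CPM per kb against 20.4 for all genes, and the highest levels were 36.1 and 93.2. Large subunit genes had a median of 14.6 and small subunit genes of 16.8 CPM per kb.

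**Figure D1:**
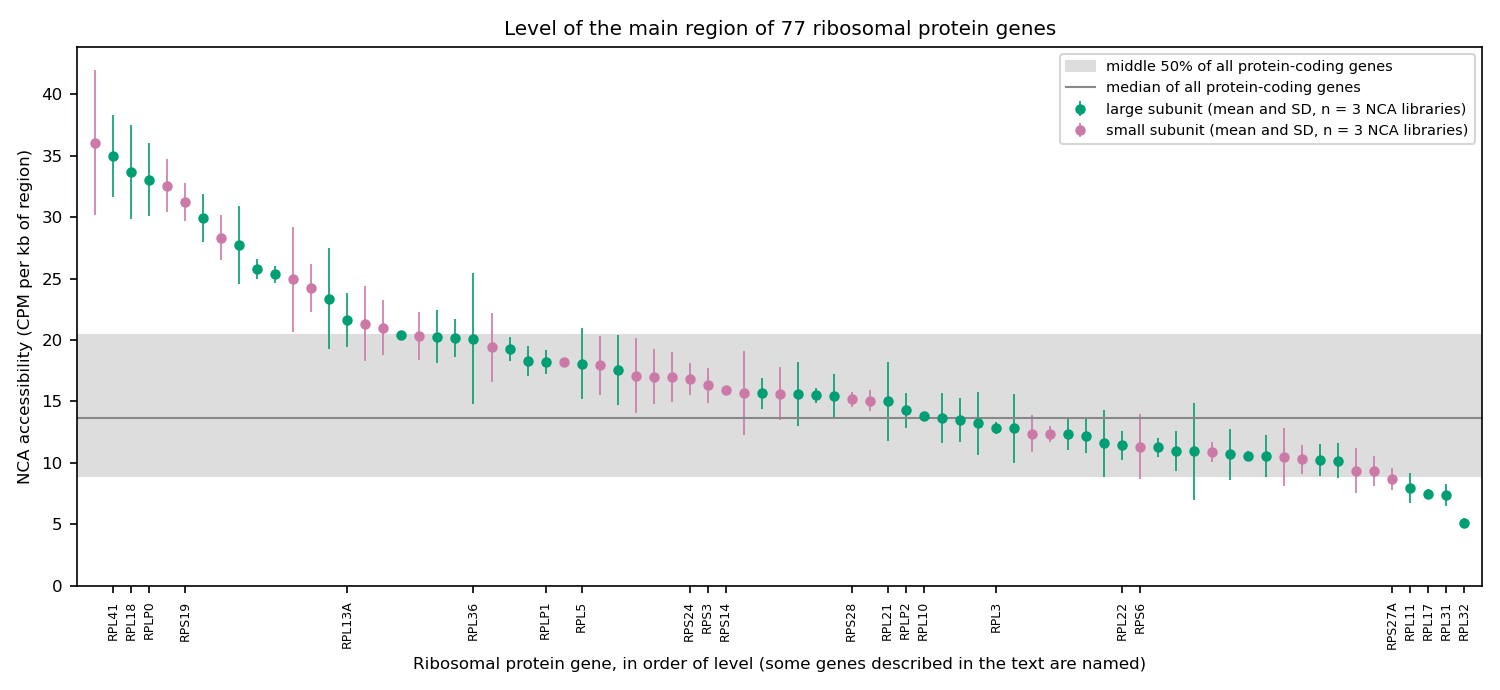
NCA accessibility (CPM per kb of region, mean and SD of 3 libraries) of the main region of each of 77 ribosomal protein genes in order of level, coloured by subunit, over the median and the middle 50% of all protein-coding genes; some genes described in the text are named on the axis. RPL41 is near the top at 35.0, RPL32 is the lowest at 5.09, and both subunits are spread along the order.

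Among the highest levels was that of RPL41, which encodes a very short large subunit peptide, at 35.0 ± 3.35 CPM per kb (SD, n = 3); that region lies at the 3′ end of RPL41 and at the start of ZC3H10, and the region at RPL41's own start had 26.5 ± 3.08. RPL18 had 33.7 ± 3.84 in a region shared with SPHK2, and RPLP0, the base of the ribosomal stalk, had 33.1 ± 2.99 CPM per kb. These levels overlapped within their SD. The lowest were RPL32 at 5.09 ± 0.394, RPL31 at 7.37 ± 0.899, RPL17 at 7.49 ± 0.348 and RPL11 at 7.95 ± 1.24 CPM per kb. The ranges of mean ± SD of neighbours in the order overlapped in 75 of 76 pairs. The exception was the pair RPL31 and RPL32. The main region was away from the gene's start in RPL41, RPL4 (start of SNAPC5) and RPS18 (end of B3GALT4).

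Well-studied members were spread across this range. RPS19, the gene most often mutated in Diamond-Blackfan anaemia, was near the top with 31.3 ± 1.56 CPM per kb in NCA, 28.1 ± 2.35 in ASO2 and 31.4 ± 3.60 in ASO10 (SD, n = 3). RPS14, whose loss is linked to the 5q- syndrome, had 15.9 ± 0.371, 17.4 ± 1.65 and 19.1 ± 1.63 CPM per kb at its start. RPL5 and RPL11, which bind 5S rRNA and can inhibit MDM2, differed in level, at 18.1 ± 2.90 and 7.95 ± 1.24 CPM per kb in NCA. RPS6, the substrate of S6 kinase, had 11.3 ± 2.63 in NCA, 11.8 ± 3.88 in ASO2 and 12.5 ± 4.02 in ASO10. None of the 3 pairwise contrasts of these 5 regions passed the test, with adjusted p between 0.592 and 0.993.

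The acidic stalk genes had different levels: RPLP1 had 18.2 ± 0.990 and RPLP2 14.3 ± 1.40 CPM per kb in NCA. Their log2 fold changes under ASO10 were 0.25 ± 0.12 (SE) for RPLP0, 0.21 ± 0.14 for RPLP1 and 0.19 ± 0.17 for RPLP2, and none passed the test. RPS3, which lines the mRNA entry channel, had 16.3 ± 1.4 CPM per kb in NCA; RPL10, needed for subunit joining, had 13.8 ± 0.202; and RPL22, which has a paralog outside the set, had 11.4 ± 1.16. RPS27A, which is made as a fusion with ubiquitin and shares its region with the start of CLHC1, had 8.69 ± 0.917, 8.98 ± 1.36 and 8.22 ± 1.43 CPM per kb in NCA, ASO2 and ASO10.

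Under ASO2 most ribosomal protein gene regions stayed close to the control. At an adjusted p under 0.05 (quasi-likelihood test of edgeR, Benjamini-Hochberg adjusted over 119417 regions and used throughout), RPS24 was higher and RPS28 was lower, 2 of 96 regions. Over all tested regions 5.6% passed in either direction (4.79% higher and 0.808% lower), and over the 13532 regions at protein-coding gene ends 1.54% did (0.569% higher and 0.968% lower). The median log2 fold change of the 96 regions was -0.075, against -0.053 at gene ends and -0.024 over all tested regions. It was above 0 in 34 of the 96 (35.4%), against 40.3% at gene ends and 47.9% over all tested regions. In 4 members every ASO2 library exceeded every NCA library, and in 10 members each fell short of the lowest, against 4.51% and 9.51% of gene-end regions and 11.9% and 8.57% of all tested regions.

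RPS28 encodes a small protein of the 40S head. Its region (chromosome 19, 8320757 to 8322167) covers the start of RPS28 and that of NDUFA7, a subunit gene of respiratory complex I. The NCA libraries had 22.4, 20.8 and 21.0 CPM, the ASO2 libraries 11.4, 15.8 and 12.8, and the ASO10 libraries 22.8, 19.001 and 20.8. All ASO2 libraries were below every library of the other groups, while NCA and ASO10 overlapped. The log2 fold change was -0.68 ± 0.16 (SE) under ASO2 (adjusted p = 0.000707, edgeR) and -0.04 ± 0.15 under ASO10 (adjusted p = 0.960). The direct difference between ASO2 and ASO10 was -0.64 ± 0.16 (adjusted p = 0.00339, edgeR); leaving out replicate 1 of ASO2 gave an adjusted p of 0.0731, and leaving out replicate 1 of ASO10 gave 0.0600. The call against NCA held in all 18 alternative fits, with log2 fold changes from -0.82 to -0.58.

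Because RPS28 was the member with the smallest adjusted p, its promoter is shown from 200 bases before to 10 bases after the start (RefSeq, GRCh38.p14, chr19:8321296-8321505, + strand), with the motifs searched in capitals.
RPS28: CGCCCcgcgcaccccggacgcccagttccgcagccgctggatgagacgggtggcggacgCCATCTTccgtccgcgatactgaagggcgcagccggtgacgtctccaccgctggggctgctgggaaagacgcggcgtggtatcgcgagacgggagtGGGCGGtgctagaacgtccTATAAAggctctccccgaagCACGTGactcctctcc
Counted from the start, the hits begin at -201 (Sp1, reverse strand, of which the first base lies before the stretch), -141 (YY1, reverse strand), -45 (Sp1), -26 (TATAAA) and -6 (E-box). RPS28 was the only member of the 64 with both an E-box and TATAAA in the window.

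RPS24 encodes a small subunit protein with a role in processing of the 18S rRNA precursor. Its start region (chromosome 10, 78033543 to 78034149) had 9.66, 9.83 and 11.1 CPM in NCA, 17.7, 17.6 and 12.6 in ASO2, and 12.8, 12.9 and 13.4 in ASO10. Both ASO groups were above every NCA library, and ASO2 replicate 3 lay below the ASO10 libraries. The log2 fold change was 0.63 ± 0.18 (SE) under ASO2 (adjusted p = 0.0105, edgeR) and 0.35 ± 0.18 under ASO10 (adjusted p = 0.486), and the difference between the ASOs was 0.28 ± 0.17 (adjusted p = 0.458). The ASO2 call was lost with limma-voom (adjusted p = 0.0537), with the gene's 2 regions summed (log2 fold change 0.45, adjusted p = 0.102) and without NCA replicate 1 (adjusted p = 0.0716), NCA replicate 2 (0.0593), ASO2 replicate 1 (0.0925) or ASO2 replicate 2 (0.111). A second region at the 3′ end of RPS24 held few counts, with 1.84 ± 0.867 CPM in NCA, 0.636 ± 0.253 in ASO2 and 0.840 ± 0.340 in ASO10 (SD, n = 3), and log2 fold changes of -1.50 ± 0.74 and -1.12 ± 0.73 that did not pass (adjusted p = 0.280 and 0.621).

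The RPS24 promoter (chr10:78033663-78033872, + strand, same span and source) is shown beside that of RPS28 because the region moved the other way.
RPS24: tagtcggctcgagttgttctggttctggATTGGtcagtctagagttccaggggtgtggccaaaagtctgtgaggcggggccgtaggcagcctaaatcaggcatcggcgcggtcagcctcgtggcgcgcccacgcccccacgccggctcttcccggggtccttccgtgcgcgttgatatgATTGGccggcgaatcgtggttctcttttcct
Only CCAAT was found, on the reverse strand at -172 and -21.

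Among main regions, the next lowest changes under ASO2 were at RPL21 (-0.50 ± 0.17, SE; adjusted p = 0.0608), the RPL4 region shared with SNAPC5 (-0.42 ± 0.17; adjusted p = 0.141) and RPL29, a region of 223 bases with 1.28 to 2.77 CPM (-0.37 ± 0.49; adjusted p = 0.770). The next highest were RPSA, which encodes a 40S protein also known as a laminin receptor precursor, at 0.31 ± 0.16, RPL32 at 0.30 ± 0.23 and RPS13 at 0.30 ± 0.19, and none of these passed the test (adjusted p from 0.282 to 0.563).

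Under ASO10 no ribosomal protein gene region passed the test in edgeR, while DESeq2 called 1. An unadjusted p under 0.05 was found in 11 of 96 members, against 10.6% of all tested regions and 17.3% of gene-end regions. Over all tested regions 1.09% passed (0.876% higher, 0.21% lower; 1046 and 251 regions, or 682 and 468 with offsets fitted by loess on abundance) and at gene ends 2.14% (2.02% higher, 0.118% lower). The regions leaned upward, as gene ends did. In 64 of 96 (66.7%) the log2 fold change was positive, against 62.6% at gene ends and 49.4% over all tested regions. The median was 0.104, against 0.086 at gene ends and -0.0067 over all tested regions. With the loess offsets the members' median was 0.018. All ASO10 libraries were above all NCA libraries in 14 members and below in 7, against 17.9% and 4.86% of gene-end regions (8.51% and 7.15% of all tested regions).

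RPL13A, the protein known for its release from the 60S subunit during the interferon response, had the smallest adjusted p. Its start region (chromosome 19, 49487122 to 49487819) had 13.8, 16.8 and 14.8 CPM in NCA, 15.7, 17.8 and 14.6 in ASO2, and 21.2, 19.3 and 25.0 in ASO10. The ASO10 libraries were above all others, and the other groups overlapped. The log2 fold change under ASO10 was 0.53 ± 0.16 (SE; adjusted p = 0.0561, edgeR; 0.0485 with DESeq2), and that under ASO2 was 0.09 ± 0.16 (adjusted p = 0.851). The direct difference did not pass either (-0.44 ± 0.15, adjusted p = 0.0840).

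Among main regions, the other highest ASO10 values were at RPS13 (0.58 ± 0.19, SE; adjusted p = 0.120), RPS15 (0.55 ± 0.21; adjusted p = 0.240) and RPL32 (0.52 ± 0.23; adjusted p = 0.373), and in each the 3 ASO10 libraries were above the 3 NCA libraries. RPS13 had 9.79, 8.95 and 7.72 CPM in NCA against 16.7, 12.2 and 10.7 in ASO10. Among the lowest ASO10 values of main regions were RPL21 at -0.48 ± 0.17, RPL29 at -0.37 ± 0.49 and RPS23, whose protein sits in the decoding centre, at -0.31 ± 0.17 (adjusted p from 0.186 to 0.846).

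**Figure D2:**
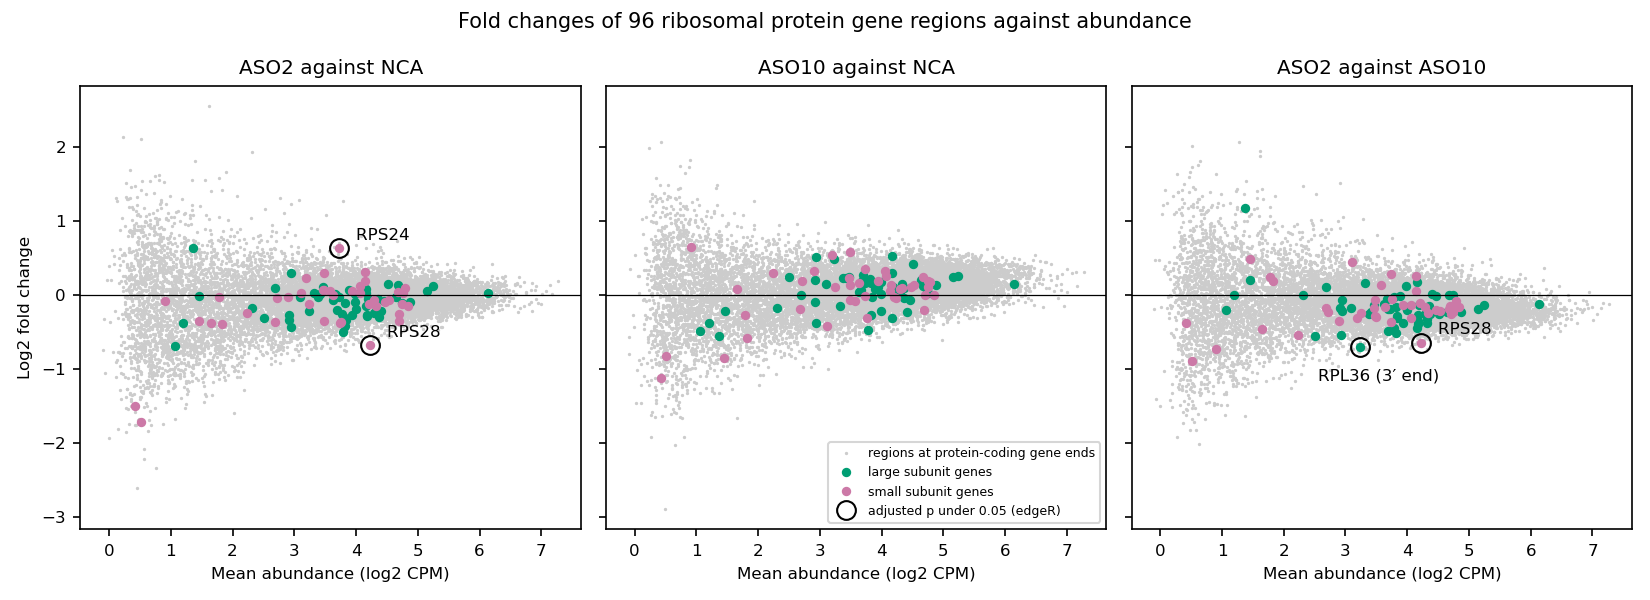
Log2 fold change against mean abundance (log2 CPM) in 3 contrasts, with the 96 ribosomal protein gene regions coloured by subunit over the 13532 tested regions at protein-coding gene ends in grey; circles mark an adjusted p under 0.05. Most members lie within the grey cloud, RPS24 and RPS28 are circled under ASO2, none is circled under ASO10, and RPS28 and the 3′ region of RPL36 are circled between the ASOs.

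With both ASOs as 1 group against NCA, RPL21 was lower and no member was higher. Over all tested regions 2.99% passed (2.4% higher, 0.594% lower; 2866 and 709 regions, or 2620 and 1124 with loess offsets) and at gene ends 1.4% (0.961% higher, 0.436% lower). RPL21 encodes a large subunit protein. Its start region (chromosome 13, 27250984 to 27252095) had 20.7, 14.1 and 15.2 CPM in NCA, 14.3, 12.4 and 9.08 in ASO2, and 12.1, 11.3 and 12.6 in ASO10. All ASO10 libraries and 2 of the 3 ASO2 libraries were below every NCA library, and NCA replicate 1 was the highest of the 9. The log2 fold change was -0.49 ± 0.15 (SE; adjusted p = 0.0362, edgeR). Without NCA replicate 1 it was -0.31 (adjusted p = 0.497), and the call was also lost with DESeq2 (adjusted p = 0.103), limma-voom (0.0907) and no filter on low counts (0.0558), and without 5 other single libraries (0.0507 to 0.141). The RPL21 promoter (chr13:27251358-27251567, + strand, same source) is shown for comparison with the other called members, and none of the searched motifs stood in this stretch.
RPL21: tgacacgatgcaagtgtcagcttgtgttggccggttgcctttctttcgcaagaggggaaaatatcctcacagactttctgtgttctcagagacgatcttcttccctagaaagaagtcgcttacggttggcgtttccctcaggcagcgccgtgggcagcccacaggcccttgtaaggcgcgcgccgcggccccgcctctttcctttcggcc

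Between the ASOs, 2 ribosomal protein gene regions were lower in ASO2 than in ASO10 and none was higher. Over all tested regions 3.23% passed (2.54% higher, 0.682% lower in ASO2), and at gene ends 3.31% (0.369% higher, 2.94% lower). The median log2 difference of the members was -0.183, against -0.147 at gene ends and -0.0021 over all tested regions. It was above 0 in 19 of 96 (19.8%), against 27.7% at gene ends and 49.8% over all tested regions. All ASO2 libraries were below all ASO10 libraries in 17 members and above in 3, against 19.5% and 3.27% of gene-end regions (8.31% and 11% of all tested regions).

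One of the called regions was RPS28, described above. The other was the region at the 3′ end of RPL36 (chromosome 19, 5691795 to 5692909), where LONP1, the gene of a mitochondrial protease, also ends. It had 9.66, 8.45 and 7.15 CPM in NCA, 9.82, 4.61 and 7.62 in ASO2, and 13.0, 7.40 and 15.1 in ASO10. The ASO groups overlapped, since ASO10 replicate 2 was lower than ASO2 replicates 1 and 3. The difference was -0.70 ± 0.21 (SE; adjusted p = 0.0302, edgeR) and did not pass with DESeq2 (adjusted p = 0.164) or limma-voom (0.0601), or without ASO2 replicate 2 (-0.45, adjusted p = 0.383), ASO2 replicate 3 (0.0721), ASO10 replicate 1 (0.191) or ASO10 replicate 3 (-0.49, adjusted p = 0.393). At the start of RPL36 the difference was -0.31 ± 0.17 (adjusted p = 0.385).

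Among main regions, the lowest differences after RPS28 were at RPL14 (-0.55 ± 0.27, SE; adjusted p = 0.318), RPL8 (-0.54 ± 0.23; adjusted p = 0.218) and RPL3, which encodes a protein near the peptidyl transferase centre (-0.52 ± 0.17; adjusted p = 0.0645). RPL3 had 14.3, 14.4 and 13.4 CPM in NCA, 9.68, 14.1 and 10.2 in ASO2, and 14.9, 15.9 and 18.0 in ASO10. The ASO10 libraries were above all others, and ASO2 replicate 2 lay within the NCA range. Among the highest differences of main regions were RPS24 at 0.28 ± 0.17, RPSA at 0.25 ± 0.15 and RPL34 at 0.17 ± 0.16 (adjusted p from 0.458 to 0.670).

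**Figure D3:**
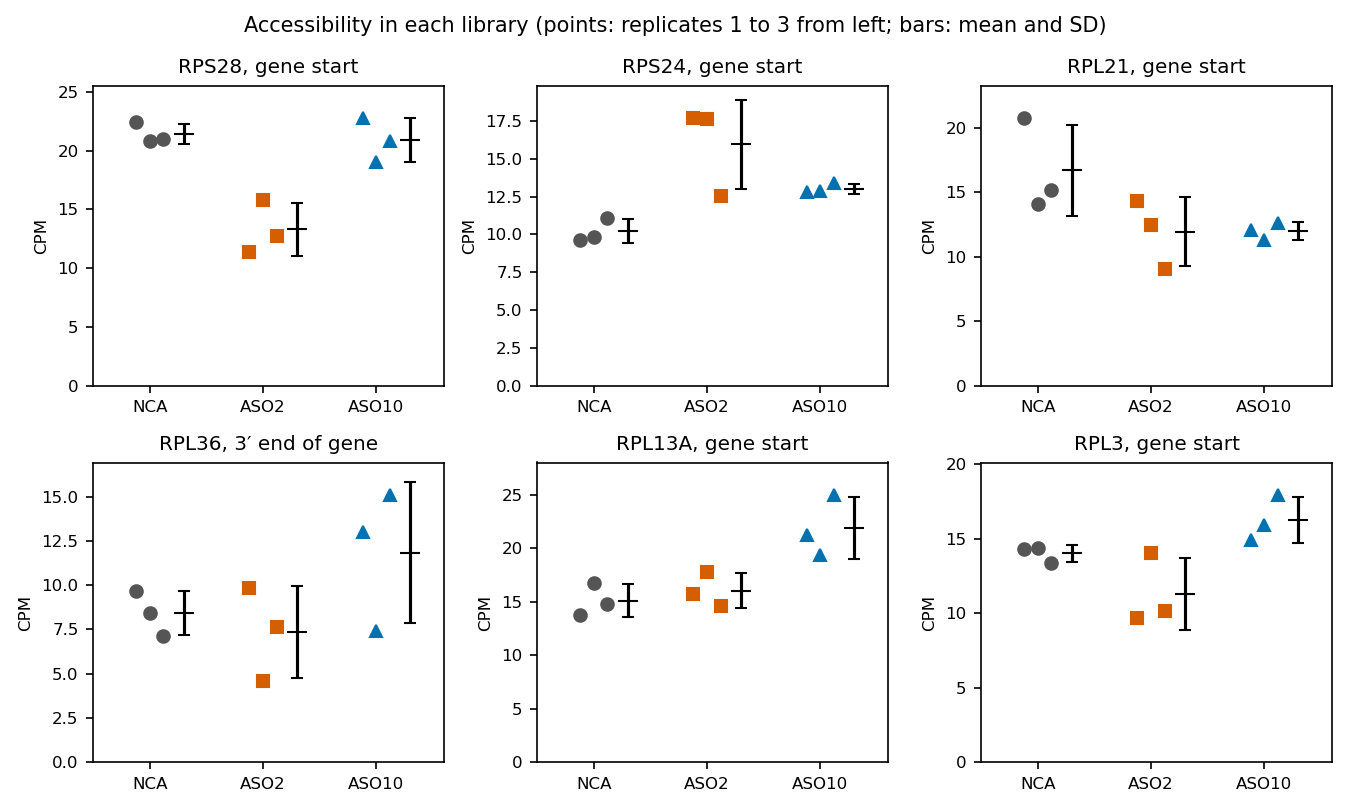
CPM of 6 ribosomal protein gene regions in each of the 9 libraries, with the group mean and SD beside the points. RPS28 is lower in the 3 ASO2 libraries than in all others, RPS24 is higher in both ASO groups than in NCA, and the groups overlap between ASO2 and ASO10 at the 3′ end of RPL36.

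Some regions kept the 3 groups fully apart, and 2 of them are named here after their values were seen. RPS26, a small subunit protein at the mRNA exit, had 28.9 ± 1.88 CPM in NCA, 25.1 ± 1.15 in ASO10 and 22.7 ± 0.489 in ASO2 (SD, n = 3). The 3′ region of RPL10A had 1.47 ± 0.170 CPM in ASO10, 2.17 ± 0.115 in NCA and 3.37 ± 1.07 in ASO2. None of their 3 pairwise contrasts passed the test (adjusted p from 0.123 to 0.746). With at least 10 counts required in every library, RPS26 passed under ASO2 (adjusted p = 0.0439, edgeR) and RPL10A between the ASOs (0.0486). With loess offsets RPS26 passed for both ASOs (adjusted p = 0.0454, edgeR).

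By subunit, the median log2 fold change was -0.090 for large and -0.071 for small subunit regions under ASO2, 0.104 and 0.105 under ASO10, and -0.187 and -0.173 between the ASOs. By position, regions at starts had medians of -0.071 under ASO2 and 0.110 under ASO10, and the 15 regions at the other end had -0.264 and -0.217. The difference between positions was not tested; the other-end regions were also less accessible, with a median of 9.75 against 15.04 CPM per kb in NCA. The 11 members with a mean under 2 log2 CPM had medians of -0.374 under ASO2 and -0.486 under ASO10, against -0.151 and -0.061 at gene ends of that abundance. The 11 members between 2 and 3 log2 CPM had -0.239 and 0.188, against -0.107 and -0.029 at gene ends. The 35 members between 3 and 4 had -0.030 and 0.147, against -0.063 and 0.066. The 36 members between 4 and 5 log2 CPM had -0.083 and 0.102, against -0.037 and 0.114 at gene ends. The 3 members above 5 had 0.060 and 0.247, against -0.013 and 0.174.

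Library by library, the median shifts of the members and of all gene ends were set side by side. The median log2 difference from the NCA mean over the 96 regions was -0.084, -0.019 and -0.143 in the ASO2 libraries and 0.110, 0.054 and 0.119 in the ASO10 libraries. At protein-coding gene ends it was -0.038, 0.042 and -0.145 in ASO2 and 0.123, 0.057 and 0.099 in ASO10. In both sets ASO2 replicate 3 was the lowest library and all 3 ASO10 libraries were above all NCA libraries. The members' regions held 0.142% ± 0.0044 of all counts in NCA, 0.133% ± 0.00758 in ASO2 and 0.149% ± 0.00456 in ASO10 (SD, n = 3). Single libraries ran from 0.137% to 0.145% in NCA, 0.127% to 0.141% in ASO2 and 0.144% to 0.152% in ASO10, so that NCA overlapped both ASO groups and the ASO groups did not overlap each other. With the single largest region left out of the totals, the ASO groups overlapped, at 0.138% to 0.155% and 0.155% to 0.164%.

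**Figure D4:**
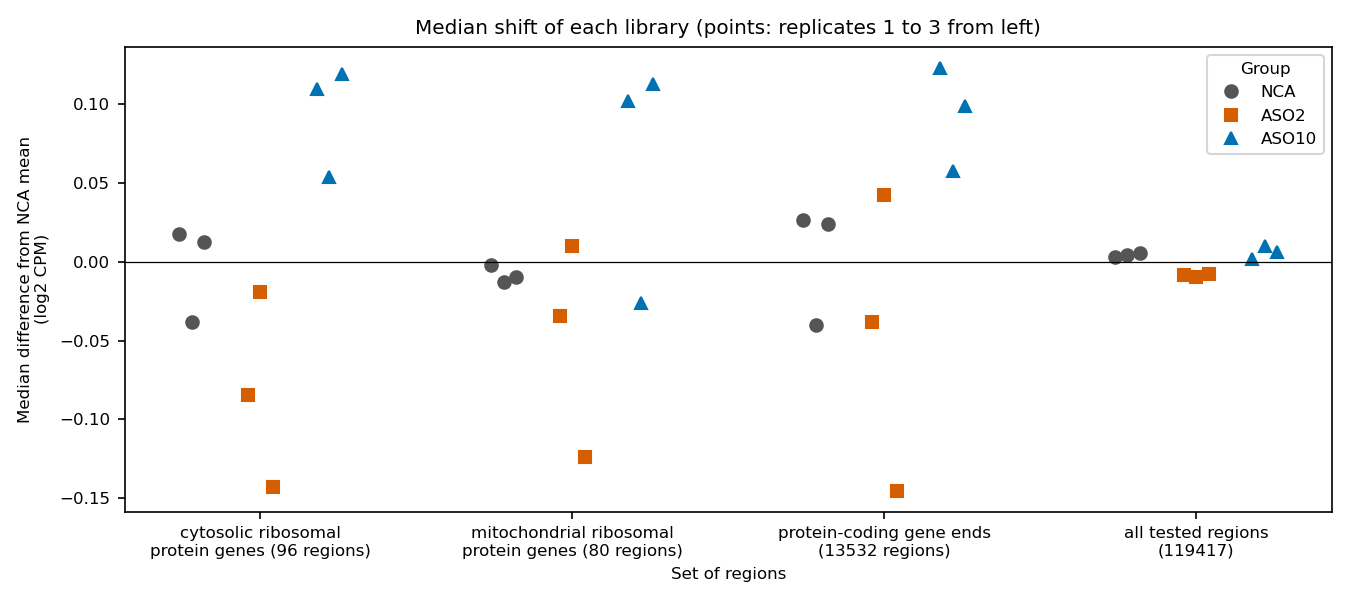
Median log2 CPM difference of each library from the NCA mean for the ribosomal protein gene regions, mitochondrial ribosomal protein gene regions, regions at protein-coding gene ends and all tested regions. The ASO10 libraries sit at 0.054 to 0.119 for ribosomal protein genes and at 0.057 to 0.123 for gene ends, and all libraries are near 0 over all tested regions.

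Other genes of ribosome production were counted by the same window rule. At an unadjusted p under 0.05, 16.5% of all tested regions stood under ASO2, 10.6% under ASO10, 14% for both ASOs and 14.6% between the ASOs, and at gene ends 10.4%, 17.3%, 12.3% and 20%. Of 77 mitochondrial ribosomal protein genes, 74 had regions. None of their 80 tested regions passed under ASO2, ASO10 or both (6, 13 and 12 at an unadjusted p under 0.05). Of the 80, 1 was lower in ASO2 than in ASO10 (MRPS18B, -0.42 ± 0.13, SE, adjusted p = 0.0384, edgeR). That share stood against 2.94% of gene-end regions and 0.682% of all tested regions. The medians of the 80 regions were -0.059 under ASO2 and 0.057 under ASO10. Among 39 tested regions of RNA polymerase I and rRNA processing genes, RRP9 was higher under ASO10 (0.59 ± 0.15, adjusted p = 0.0121, edgeR). RRP9, which encodes a U3 snoRNP protein, was also higher with both ASOs together. This was 1 of 39 regions, against 2.02% of gene-end regions under ASO10 and 0.961% for both ASOs. Over all tested regions the shares were 0.876% and 2.4%. NCL, TAF1D and FBL were lower in ASO2 than in ASO10 (-0.42, -0.43 and -0.58). These were 3 of 39 regions, against 2.94% of gene-end regions and 0.682% of all tested regions. The medians of the 39 regions were 0.013 under ASO2, 0.131 under ASO10 and -0.150 between the ASOs.

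Of 16 regions of 14 other TOP genes, 2 were lower in ASO2 than in ASO10. At gene ends 2.94% were, and over all tested regions 0.682%. The 2 were HNRNPA1 (-0.40 ± 0.10, adjusted p = 0.00741, edgeR) and NAP1L1 (-0.46 ± 0.11, adjusted p = 0.00469, edgeR). Between the ASOs 6 had an unadjusted p under 0.05, against 20% at gene ends and 14.6% of all tested regions. Against NCA none passed, and 1 under ASO2 and 4 under ASO10 had an unadjusted p under 0.05. The shares were 10.4% and 17.3% at gene ends and 16.5% and 10.6% of all tested regions. Medians were -0.126 under ASO2, 0.174 under ASO10 and -0.212 between the ASOs, against -0.053, 0.086 and -0.147 at gene ends. No region passed in any of the 4 contrasts among 9 of ribosomal protein-like paralogs, 8 of growth control genes, 3 of RNA polymerase III factors, 2 of the ubiquitin fusion group, 9 of adrenergic markers and 5 of other cell types; at most 3 regions of a list had an unadjusted p under 0.05 in any contrast. The contrasts with NCA share the same 3 NCA libraries.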

How the data were processed

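The deposited table holds raw read counts per region for the 9 libraries, in whole numbers. Per the submitters' processing notes, the tools used included FastQC, Bowtie2 2.2.6, SAMtools, MACS2 2.1.2 and DESeq2 1.42.0 with hg38; their roles, the Tn5 shift, read filters and whether regions count from 0 are not given in the sources used here. Coordinates are those of the region names. Per the labels' protocols, sequencing was paired-end.

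Regions passing edgeR's filterByExpr by group (119417) were fitted together over all 9 libraries (edgeR 4.0.16, R 4.3.3, TMM factors, robust quasi-likelihood), with Benjamini-Hochberg adjustment over all of them and a threshold of 0.05. CPM used the tested counts and TMM factors. The labels give no batch. Libraries with the same replicate number showed no shared deviation (correlations from -0.036 to 0.013). Most tested regions had few counts, so a small shared effect could have been missed. On simulated data for ASO2 against NCA, 200 regions were changed and 123264 were tested. A log2 change of 1 was recovered in 92.6% of 27 changed regions above 3 log2 CPM and a change of 0.5 in 4.35% of 23. Over all abundances the shares were 30.8% and 1.05%. The simulation gave 30 calls and the data 6687, and the adjusted p depends on that number. Recovery in the data can therefore differ from these shares.

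The members and comparison lists were chosen with earlier results of these data known. Named genes were every region past the threshold, the 4 highest and 4 lowest main regions in each contrast of 2 groups, the 4 highest and lowest by NCA level, and a set of well-studied members. Some genes that meet this rule are not reported here. Alternatives were DESeq2, limma-voom, other scalings, filters, windows and sets of libraries, a replicate block and regions summed by gene.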

Additional observations from a re-analysis of the deposited data

Results flagged for a closer look

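Accessibility differed between ASO2 and ASO10 in 2 member regions by the direct test in edgeR. At the start of RPS28, shared with NDUFA7, ASO2 was lower by a log2 difference of -0.64 (13.3 ± 2.25 against 20.9 ± 1.88 CPM, SD, n = 3), and the libraries did not overlap. At the 3′ end of RPL36 and LONP1 the difference was -0.70 (7.35 ± 2.61 against 11.8 ± 3.99 CPM), and the libraries overlapped. Against NCA neither ASO passed at that RPL36 region. Its log2 fold changes were -0.21 under ASO2 (adjusted p = 0.690, edgeR) and 0.49 under ASO10 (adjusted p = 0.317, edgeR). Over all tested regions 3.23% passed this test.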

How the results depend on the processing

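Over 37 results and their alternatives, 642 comparisons were made. Among the regions and contrasts followed singly, a call was gained in 14 comparisons and lost in 23, and none changed sign. Some other members and contrasts also gained calls in alternatives and are not in the 14. Another 51 values or counts moved beyond their tolerance. Counts were compared by their total, and in 6 comparisons a similar total split differently by direction: under ASO2, 0 higher and 2 lower (RPS28 and RPL21) without NCA replicate 2 or without ASO2 replicate 1, and 1 higher and 2 lower with total counts, loess offsets or only the groups compared; for both ASOs without ASO2 replicate 3, RPS24 was called higher (0.56, adjusted p = 0.0242, edgeR) in place of RPL21 lower. Under ASO2 the 2 called regions became 1 with limma-voom, 4 with at least 10 counts in every library, 1 with regions summed by gene, 0 with a log2 change over 1 also required, and 1 to 2 with single libraries left out. Under ASO10 the 0 calls became 1 with DESeq2, with at least 10 counts in every library and with only the groups compared, and were 0 to 1 with single libraries left out; its median was 0.018 with loess offsets. For both ASOs the 1 call became 0 with DESeq2, limma-voom, no filter, or a log2 change over 1, became 3 with loess offsets and with at least 10 counts, and was 0 to 1 with single libraries left out. Between the ASOs the 2 calls became 1 with DESeq2, limma-voom, the 250-base window or starts only, 5 with at least 10 counts, 4 with only the groups compared and 0 with a log2 change over 1, and were 0 to 2 with single libraries left out. With the replicate block the calls were 2, 0, 0 and 2; RPL21 was lost for both ASOs (adjusted p = 0.0539, edgeR) and no other call changed. The replicate numbers showed no pairing of libraries, although a small shared effect could have been missed, and the block is a check only. The cause of these changes was not tested. The share of counts in member regions, with a mean of 0.142% in NCA, was 0.131% within 500 bases, 0.098% within 250 bases and 0.097% at starts only, and the NCA level was 15.1 CPM per kb at starts. RPL13A under ASO10, RPL21 under ASO2 and RPL3 between the ASOs passed in 5, 6 and 3 alternatives. Member regions held 9.44 to 597 counts per library on average. At 3 libraries a group a log2 change of 0.5 was rarely recovered in the simulation. Only 200 regions were changed there, so recovery in the data can differ.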
